A study of Mus musculus with 49 samples.

Results

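The first day of hepatocyte culture was examined as a single step, from 3 h to 1 day after plating. Of 49 libraries in the series, 6 belong to this step and were taken by their labels: 3 of hepatocytes cultured for 3 h and 3 of hepatocytes cultured for 1 day. Both groups were wild-type C57BL/6J hepatocytes, taken from the livers of male mice at an age of 10 weeks by collagenase digestion in 2 steps and freed of non-parenchymal and blood cells by centrifugation. They were grown as monolayers on dishes coated with type I collagen, in a medium for hepatic progenitor cells that held 20 ng/mL of epidermal growth factor (EGF) and no hepatocyte growth factor. No genetic change and no drug separates the groups, and the labels separate them by time after plating. The titles number the libraries of each group 1 to 3, while the sample descriptions number those at 3 h 4 to 6 and those at 1 day, in fresh hepatocytes and at 2 days 2 to 4. What the second numbers mark is not given, and since they overlap in 1 number alone, whatever they mark cannot be told apart from time. The labels do not say whether they came from separate mice. The study states that its experiments, apart from 1 outside this step, were done at least 3 times independently. It does not say how these libraries relate to those repeats. The p-values measure only the spread between these libraries, which may be technical.

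The hepatocyte is the main parenchymal cell of the liver. It makes and exports most plasma proteins, makes glucose during fasting, turns ammonia from amino acids into urea, makes bile acids and inactivates drugs. These programs are held up by a group of liver transcription factors, among them the HNF4, FOXA, C/EBP and ONECUT families. Hepatocytes that are cut loose from the liver and plated are known to lose these functions, to spread on the dish and to take on features of progenitor cells. The comparison here asks which of these changes fall between 3 h, when the cells have just attached, and the following day.

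Transcripts were counted by CEL-Seq2, which reads transcript 3′ ends and counts unique molecular identifiers (UMIs), short random tags that let copies of a molecule be counted once. Totals were 1306474, 1520584 and 1459279 counts at 3 h and 2297042, 2099933 and 2161484 at 1 day. Levels are given in CPM, the counts of a library scaled to a total of 1e+06 after adjustment by TMM factors, which were 0.768 to 0.791 at 3 h and 1.22 to 1.34 at 1 day, and are listed in the order of replicates 1, 2 and 3. A count of 0 allows up to 3 counts, or 2.52 to 2.94 CPM at 3 h and 0.987 to 1.15 CPM at 1 day, by counting error alone. Libraries of a group were alike (Spearman correlation across genes 0.928 to 0.950), though none was a copy of another, since their chi-square statistics were 5.62 to 14.2 times the degrees of freedom. Mitochondrially encoded transcripts took 2.95% to 3.07% of the counts at 3 h and 1.80% to 2.03% at 1 day. Of the 13 mitochondrially encoded genes listed, 10 had over 2048 counts in some library. These shares therefore carry the counting limit described next, and no direction is read from them.

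A limit of the counting method touches the most abundant liver genes. No gene has more than 4096 counts in a library, which is the number of sequences that a UMI of 6 bases can take. Alb, which encodes serum albumin (ENSMUSG00000029368, GRCm38 chromosome 5, 90460897 to 90476602), had 3844 to 4004 counts at 3 h and 3602 to 3967 at 1 day. Because the 1 day libraries are scaled down more, a gene with the same count in all 6 libraries gets a log2 fold change of −1.32, and Alb came out at −1.40. The 31 genes with more than 3072 counts in every library ran from −1.49 to −1.05, and none was called. After a correction for repeated UMIs these genes ran from −2.32 to −0.43, and 14 of them were called lower. No direction is read from Alb, from Ttr (transthyretin, −1.32), from Apoa1 (apolipoprotein A-I, −1.09) or from mt-Co1 (a cytochrome oxidase subunit, −1.21). In all, 222 tested genes had over 2048 counts in some library, and for these a fold change is likely to be understated where the count is near the limit at 1 time only.

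The hepatocyte label held at both times. The 18 hepatocyte identity genes summed to 43091, 42435 and 43802 CPM at 3 h and to 12663, 15245 and 14465 CPM at 1 day, and 14 of them had over 2048 counts in some library, so their sums carry the limit above. Asgr1, a receptor found on hepatocytes, was at 1318, 1219 and 1223 CPM at 3 h and 322, 486 and 477 CPM at 1 day (−1.55, not called). Krt19, the cholangiocyte keratin, had no count in any library. The whole cholangiocyte list summed to 531 to 575 CPM at 3 h and 288 to 377 CPM at 1 day, nearly all of it Sox9. Markers of Kupffer cells, the liver macrophages, summed to 1.96, 6.71 and 11.8 CPM at 3 h and to 132, 95.9 and 6.14 CPM at 1 day, so 2 of the 3 libraries at 1 day held more of them. The Kupffer gene Clec4f had 26, 37 and 0 counts in these libraries and 2 counts in all at 3 h. Sinusoidal endothelial markers summed to 136, 200.4 and 106 CPM at 3 h and to 205, 132 and 51.0 CPM at 1 day, in the same order across the 1 day libraries. Of 8 tested, the endothelial genes Stab1, Lyve1 and Cdh5 were called higher and Fcgr2b and Clec4g lower, with Stab1 at 21.4, 7.55 and 7.29 CPM at 1 day and no longer called without its first library (1.45) or the third at 3 h (1.72). Stellate cell markers reached 32.4 to 38.0 CPM and 40.3 to 91.3 CPM, with Ecm1 called higher (3.297) and Dcn at −1.26. Leukocyte and blood cell markers reached 154 to 171 CPM and 42.4 to 66.8 CPM, with 6 of 19 at 0 in every library and most of the sum from Alas2, an enzyme of haem synthesis in red cell precursors. The part of these cells in the results was not tested. In such bulk samples fewer cells of a type and less RNA per cell cannot be told apart.

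**Figure D1:**
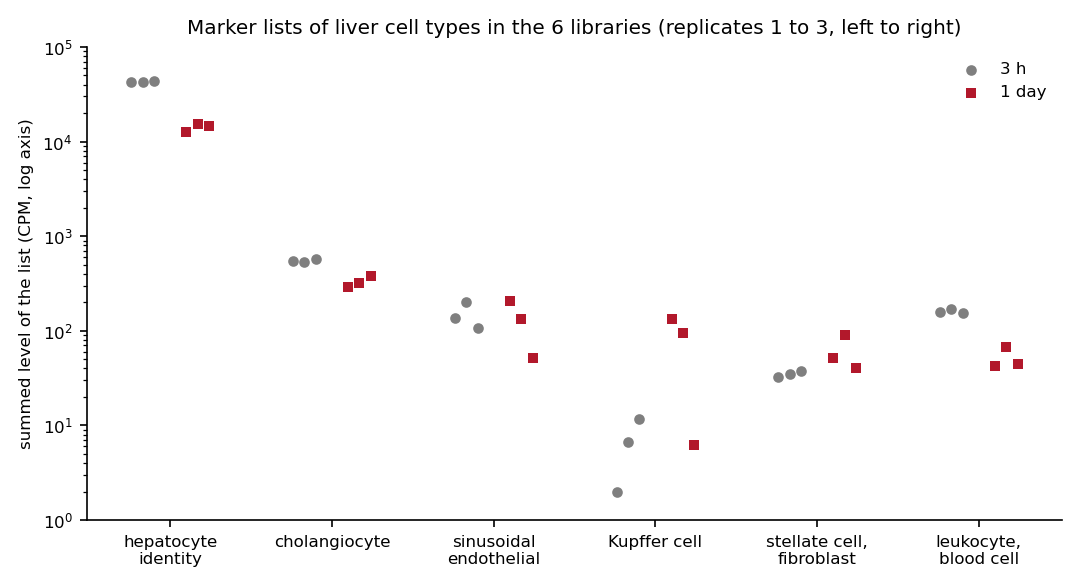
Summed level of each marker list (CPM, log axis) in the 3 libraries at 3 h (grey circles) and the 3 at 1 day (red squares), replicates 1 to 3 from left to right within a group. Hepatocyte genes exceed every other list at both times, and Kupffer cell markers are high in 2 of the 3 libraries at 1 day.

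Over the step 2338 of 9958 tested genes changed by more than 2 on the log2 scale at a false discovery rate (FDR) under 0.1 in the quasi-likelihood test of edgeR, and such genes are termed called. That is 23.5% of the genes tested, of which 978 were higher at 1 day (9.82%) and 1360 lower (13.7%). At any fold 6348 genes passed the FDR (63.7%), 3199 higher and 3149 lower, and the median log2 fold change of all genes was 0.07, with quartiles of −1.10 and 1.05. By more than 4 on the log2 scale 361 genes fell and 178 rose, and by more than 6 the numbers were 73 and 70. The libraries of both times did not overlap for 970 of the genes called higher and 1355 of those called lower, against 63.4% of all genes tested. Spearman correlations between a library at 3 h and one at 1 day were 0.534 to 0.674. The balance of the calls depends on the scaling. With library totals in place of TMM factors the median of all genes moved to 0.78, and 69.4% of the calls were higher instead of 41.8%, with no called gene turning direction.

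**Figure D2:**
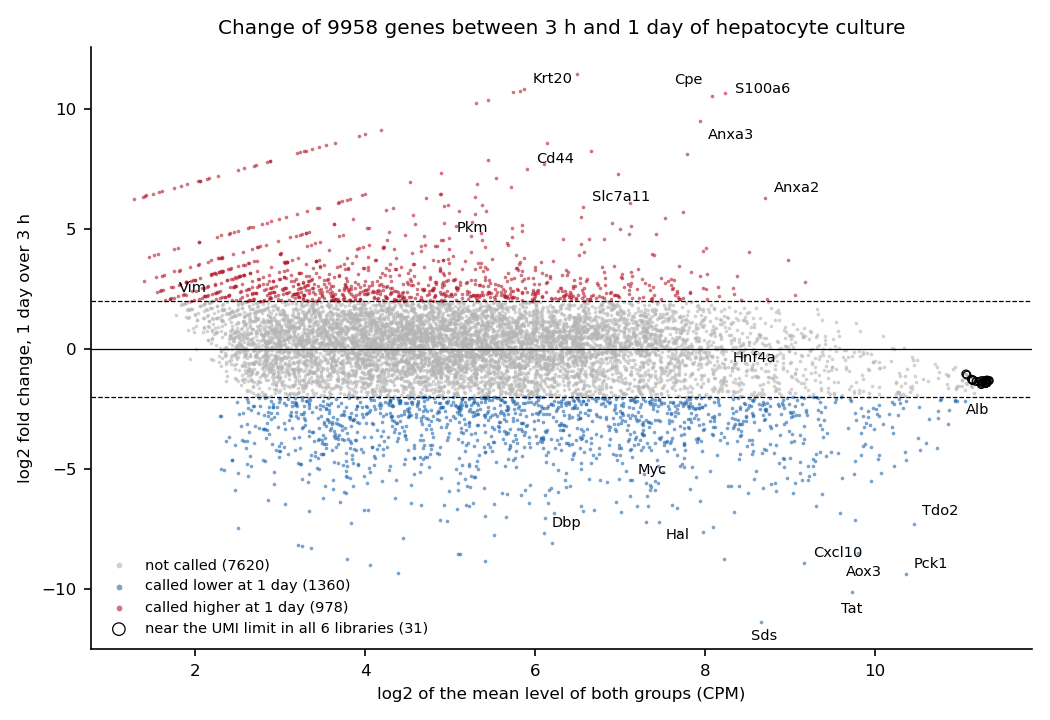
Change of each of the 9958 tested genes (log2 fold change, 1 day over 3 h) against its mean level (log2 CPM), with genes called higher in red, genes called lower in blue and the others in grey. Dashed lines mark the fold threshold, circles mark the 31 genes near the UMI limit in all 6 libraries, which lie together at the right below 0, and the slanted rows at the upper left are genes with few or no counts at 3 h.

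Grouped by function, lists of liver metabolism had the lowest medians and lists of cytoskeleton genes and Yap targets the highest of those plotted. The lists of amino acid breakdown, bile acid handling, conjugation, fatty acid oxidation and cytochromes P450 had medians between −3.68 and −2.57, and held 1 gene called higher among all their members. The lists of actin and filament genes, Yap targets and p53 targets had medians of 1.68, 1.53 and 1.17.

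**Figure D3:**
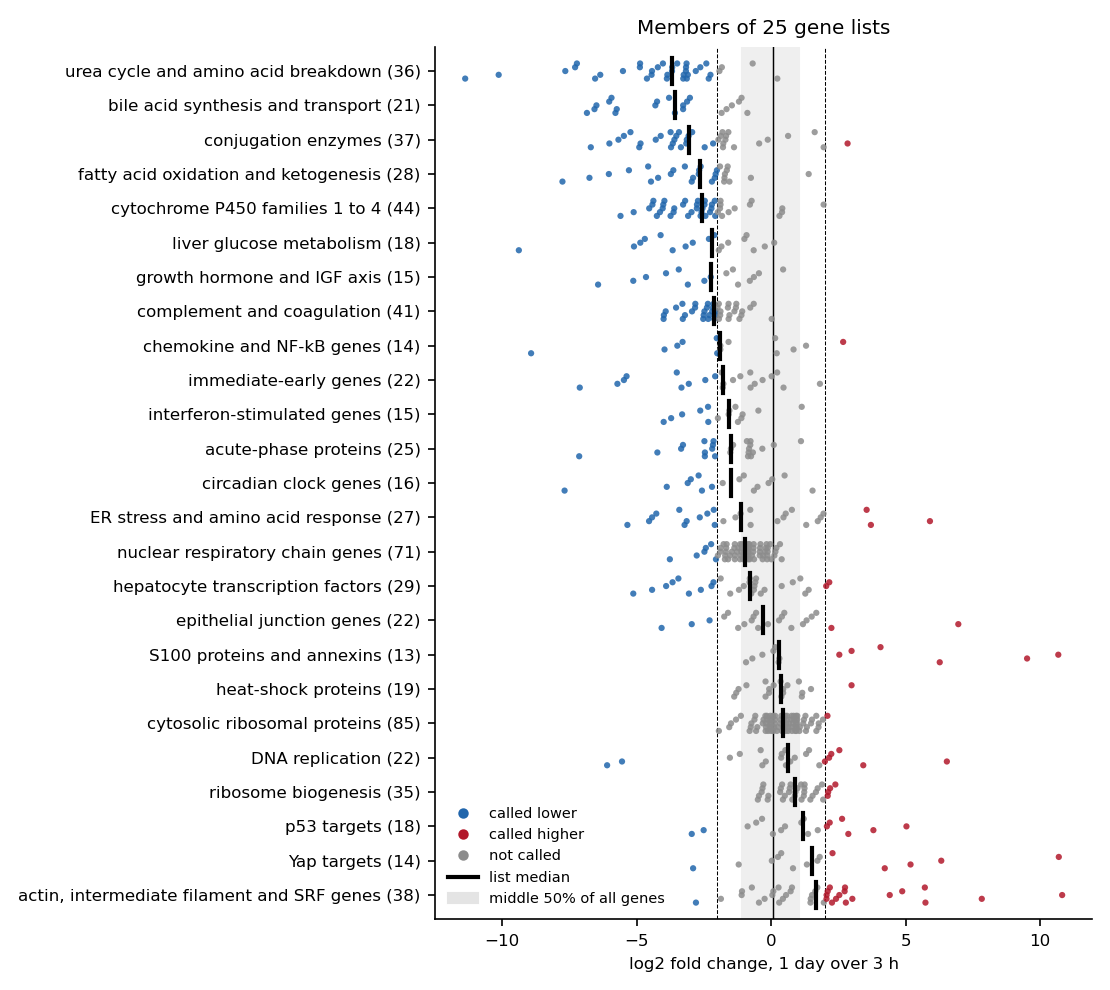
Log2 fold change (1 day over 3 h) of each tested member of 25 gene lists, with the number tested in brackets, called genes in blue (lower) or red (higher), the median of each list as a black bar and the middle 50% of all genes tested as a grey band around their median of 0.07. Lists of liver metabolism lie to the left of the band and lists of cytoskeleton genes and Yap targets to its right.

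Amino acid breakdown had the lowest median of the liver metabolism lists. Of 36 tested genes of the urea cycle and amino acid breakdown, 32 fell and none rose (median −3.68). Tat, tyrosine aminotransferase, which opens the breakdown of tyrosine (ENSMUSG00000001670, chromosome 8, 109990437 to 109999803), was at 1140.5, 1882 and 2051 CPM at 3 h and at 1.32, 1.89 and 1.15 CPM at 1 day (log2 fold change −10.13, SE 0.39, edgeR FDR 4.29e-11). It had the smallest p of all genes, and every library at 3 h lay far above every library at 1 day. Sds, serine dehydratase, went from 463, 1029.6 and 935 CPM to 0.329, 0.377 and 0 CPM, which is 2733 counts against 2 (3417-fold lower, counting interval 945 to 28231). Tdo2, the enzyme that opens tryptophan breakdown, fell from 2763, 2485 and 3129.8 to 26.6, 15.5 and 11.1 CPM (−7.29, SE 0.33, FDR 2.2e-10, and −8.24 after correction for repeated UMIs), and Kynu, kynureninase, a later step of that path, fell by 7.22 on the log2 scale. Hal, histidase, went from 461, 532 and 507 to 1.64, 3.77 and 1.92 CPM (−7.65). The urea cycle followed with smaller folds. Cps1, which commits ammonia to urea (chromosome 1, 67123026 to 67231259), fell from 2531, 2846 and 3004 to 137, 209.8 and 105 CPM (−4.21, SE 0.27, FDR 3.11e-09), and to −5.11 once counts were corrected for repeated UMIs. Arginase, Arg1, was at −5.51, Ass1 at −3.87 and Asl at −2.80, while Otc (−1.92) stayed within the fold threshold and passed it after that correction (−2.23).

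Most genes of liver glucose metabolism fell too. In the list of liver glucose metabolism 10 of 18 genes fell and none rose (median −2.21). Pck1, phosphoenolpyruvate carboxykinase, the controlled step of gluconeogenesis (ENSMUSG00000027513, chromosome 2, 173153048 to 173159273), was at 2175, 2750.2 and 2955 CPM at 3 h and at 7.56, 2.64 and 1.15 CPM at 1 day (−9.38, SE 0.47, FDR 4.95e-10, and −10.30 after correction for repeated UMIs). G6pc, glucose-6-phosphatase, which releases free glucose, dropped from 340.3, 350.5 and 324 to 1.97, 14.0 and 19.2 CPM (−4.86, SE 0.51, FDR 7.31e-07). Among glycolysis genes, 13 tested, Pkm stood out. It encodes the pyruvate kinase of muscle and proliferating cells, and rose from 0.981, 3.35 and 2.71 to 50.6, 57.4 and 74.4 CPM (4.63, SE 0.47, FDR 4.68e-07). The liver form Pklr differed by −0.23 and was not called. Pfkfb3, which makes an activator of glycolysis, fell from 488, 328 and 311 to 28.9, 24.5 and 8.06 CPM (−4.19).

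Bile acid and drug metabolism fell in nearly every family member that was called. Of 21 bile acid genes 15 fell and none rose (median −3.57). Slc10a1, the sodium-dependent importer of bile acids, was at 1379.7, 1403 and 1808 CPM at 3 h and at 13.2, 20.0 and 6.52 CPM at 1 day (−6.85, SE 0.38, FDR 9.71e-10). Cyp8b1, which sets the share of cholic acid, fell from 490.3, 1001 and 657 to 33.9, 46.4 and 33.4 CPM (−4.24), and the export pump Abcb11 from 759, 620.5 and 523 to 81.9, 62.6 and 90.2 CPM (−3.02). Cyp7a1, the rate-limiting enzyme of bile acid synthesis, did not pass the count filter, with 4, 59 and 60 counts at 3 h and 3 in all at 1 day. In cytochrome P450 families 1 to 4, 31 of 44 genes fell and none rose (median −2.57, and 19 lower and 1 higher with library totals). Cyp3a11, a main drug-metabolizing enzyme, fell from 2927, 3290.1 and 3385 to 260.1, 175 and 112 CPM (−4.13, and −5.44 after correction for repeated UMIs). Its neighbour Cyp3a25 fell by 5.60 on the log2 scale, and Cyp2e1 (−2.76) and Cyp1a2 (−2.59) by less. Among conjugation enzymes 22 of 37 fell, led by glucuronosyltransferases such as Ugt2b38 (−6.70), Ugt3a2 (−5.47) and Ugt2b1 (−5.23). The 1 member that rose was Sult1e1, oestrogen sulfotransferase, from 1.96, 0.838 and 7.24 to 23.4, 24.9 and 24.6 CPM (2.84). Aox3, an aldehyde oxidase, fell by 8.53 on the log2 scale, and Keg1, a glycine acyltransferase-like gene, fell by 7.61.

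Hepatocytes near the portal vein and near the central vein normally express different enzymes, and genes of both zones fell. Of 19 periportal genes 14 were called lower (median −2.80), and of 16 pericentral genes 11 (median −2.50, and 6 with library totals). Cyp2f2, a periportal P450, fell from 2831, 2841 and 2819 to 532, 676 and 804 CPM (−2.08), and was at −1.92, inside the fold threshold, without the first library at 1 day. Glul, glutamine synthetase of the innermost pericentral cells, fell from 341, 574 and 343 to 75.6, 107 and 54.1 CPM (−2.41). Slc1a2, a glutamate transporter of the same cells, fell by 4.56 on the log2 scale.

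Promoters of genes that fell are shown where they hold the letters bound by liver transcription factors. A window of 300 bases was read from RefSeq (GRCm38.p6) for each gene, 250 before the start and 50 after, and 13 motifs were searched on both strands. The HNF4 letters CAAAGTCCA were present in 2.37% of 927 promoters of genes called lower, 0.288% of 694 called higher, 0.643% of 7155 tested and 0.555% of all 27025. For the C/EBP letters TTGCNNAA they were 14.9%, 6.63%, 10.2% and 12.2%. Promoters of genes called lower had a median GC content of 57.0%, against 62.7% for those called higher, and these shares were not tested. The windows below were chosen for named genes of the groups above, are written along the strand of the gene and show the match in capitals.
Cyp8b1, HNF4, chr9:121916353-121916382 (− strand): agcctctgagCAAAGTCCAagggcaggaac
Cyp3a11, HNF4, chr5:145879944-145879973 (− strand): aagagagtacCAAAGTCCAgtgatgcaaag
In Cyp8b1 the match began 67 bases before the start and in Cyp3a11 109. Among list members with an HNF4 match before the start, 6 were called lower and 3 were not called. Of those called lower, Cyp2c67, Cyp2c69, Cyp2c40 and Cyp2c68 hold nearly the same letters around the match, so they are not separate cases. A match says only that these letters are there.

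Lists of fat metabolism all had negative medians, the lowest in fatty acid oxidation. In fatty acid oxidation and ketogenesis 19 of 28 genes fell and none rose (median −2.65, and 12 lower and 1 higher with library totals). Fabp1, the liver fatty acid binding protein, fell from 1954, 1874 and 2218 to 93.7, 84.2 and 76.4 CPM (−4.57). Cpt1a, the gate for fatty acids into mitochondria, fell by 2.95 on the log2 scale. Ehhadh, a peroxisomal enzyme, stood at 18.6, 193 and 62.4 CPM at 3 h, a wide spread, and had 3 counts in all at 1 day (265-fold lower, counting interval 89.9 to 1292). Synthesis of fatty acids and of cholesterol moved less evenly. Srebf1, the regulator of fatty acid synthesis, fell from 166, 224 and 195 to 6.58, 9.81 and 4.99 CPM (−4.76, SE 0.37, FDR 2.41e-08), whereas Fasn, the synthase itself, was at 309.9, 125 and 190.0 CPM and then 88.5, 125 and 169 CPM, with overlapping groups (−0.71, FDR 0.0920). In that list 8 of 18 fell (median −1.25), and Scd1, stearoyl-CoA desaturase, was at −1.48, not called, with 2156 to 3367 counts. Among 25 cholesterol genes 5 fell and 1 rose (median −0.75). That is 24% called, near the 23.5% of all genes tested. With library totals 1 fell and 1 rose, and the median was −0.051. Ebp fell by 3.55 on the log2 scale and Mvd rose from 18.6, 12.6 and 6.33 to 37.5, 70.2 and 159 CPM (2.83). The later enzyme Sqle (−1.07) was not called.

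Among secreted proteins many had counts near the limit. Of 41 complement and coagulation genes 23 were called lower (median −2.11, 11 with over 2048 counts in some library), and 10 with library totals. C6, of the membrane attack complex, fell from 167, 324 and 227 to 17.8, 17.7 and 9.21 CPM (−3.996). C8a of the same complex fell by 2.52 on the log2 scale. F9, coagulation factor IX, came out at 439, 308 and 454 against 62.5, 139 and 85.6 CPM (−2.06, and between −1.99 and −1.82 without any 1 of 4 libraries), and C3 at −1.55, not called. Among apolipoproteins Apof, which inhibits lipid transfer, fell from 884, 1169.7 and 751 to 45.1, 28.7 and 43.4 CPM (−4.58), and Apob, the core protein of very low density lipoprotein, differed by −0.93 and was not called. Apon, a further apolipoprotein gene, fell by 5.18 on the log2 scale. Apoa4, in contrast, was at 327, 148 and 330.3 CPM and then 322, 588 and 359 CPM, which overlap (0.66, FDR 0.0969). The 21 Mup genes, whose major urinary proteins share most of their sequence so that their separate counts are uncertain, lay at a median of −1.41, with 15 over 3072 counts in all 6 libraries, and no direction is read from them. After correction for repeated UMIs their median was −2.23 and 16 were called lower. Mup5 was at −1.32. Mup6, which was lower in counts, was the member called (−2.28).

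Liver transcription factors did not move as a block. Of 29 tested 9 fell and 2 rose (median −0.79). With library totals 6 fell and 3 rose, and the median was −0.087. Onecut1 (HNF6) fell from 52.95, 31.02 and 61.53 to 1.32, 1.51 and 1.15 CPM (−5.12, SE 0.46, FDR 1.17e-07). Cebpa (ENSMUSG00000034957, chromosome 7, 35119293 to 35121928), which drives many metabolic genes, fell from 391, 265 and 373 to 25.7, 26.8 and 16.1 CPM (−3.90, SE 0.33, FDR 6.47e-08), and its relative Cebpb fell by 4.42 on the log2 scale. The nuclear receptor Nr1i3 (CAR), a sensor of foreign compounds, fell from 28.4, 40.2 and 42.5 to 4.28, 4.15 and 1.53 CPM (−3.45). The central factor Hnf4a, however, was at 329, 415 and 398 CPM at 3 h and 154, 307 and 199 CPM at 1 day. Its groups did not overlap, yet the difference of −0.79 (FDR 0.0282) is far inside the fold threshold. Foxa2 rose from 11.8, 15.9 and 27.1 to 61.2, 101 and 84.8 CPM (2.16, SE 0.38, FDR 0.000131), and was at 1.93, inside the fold threshold, without the first library at 3 h.

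Part of the early-response genes were high at 3 h and low at 1 day. Immediate-early genes, many of which encode transcription factors, are switched on within minutes of a stimulus: 9 of 22 fell and none rose (median −1.78). Others were near no change, such as Ier2 at 0.23 and Fosl1 at 0.02, or on the positive side, such as Ier3 at 1.82, not called. Atf3, a stress factor, fell from 1305, 913 and 1407 to 137, 126 and 95.9 CPM (−3.33, SE 0.27, FDR 3.91e-08). Fosb, at 20.6, 122 and 33.5 CPM at 3 h, had 3 counts in all at 1 day. Fos was at 98.1, 181 and 85.1 CPM and then 19.7, 6.79 and 16.9 CPM (−3.06), Egr1 at 647, 1041 and 773 CPM and then 174, 197 and 79.8 CPM (−2.45). Myc, the growth regulator, dropped from 119.6, 413 and 279.6 to 5.59, 5.28 and 7.29 CPM (−5.47), and Jun was at −1.77, not called. The list of feedback genes of the ERK pathway, which lies below the EGF receptor, held calls in both directions. Dusp6, a phosphatase of ERK, fell from 719.8, 824 and 847 to 58.2, 134 and 49.5 CPM (−3.31). Etv4, a transcription factor of that pathway, had 1 count at 3 h and 135 at 1 day (54.0-fold, counting interval 9.53 to 2148). Of these 10 genes 3 fell and 1 rose, and Dusp5, another phosphatase of ERK, was at −0.49 (FDR 0.0861).

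Some inflammatory genes fell as well, and more of each list were not called. Cxcl10, a chemokine for T cells (ENSMUSG00000034855, chromosome 5, 92346638 to 92348889), was at 924, 1004 and 1519 CPM at 3 h and at 1.32, 5.28 and 0.384 CPM at 1 day (−8.92, SE 0.55, FDR 2.28e-09). The neutrophil chemokine Cxcl1 fell from 392, 459 and 364 to 36.2, 23.8 and 17.7 CPM (−3.96). Cxcl2 was called at −3.29, although its values at 3 h spread from 103 to 1116 CPM and overlapped those at 1 day. Socs3, an inhibitor of cytokine signalling, fell from 72.6, 223 and 127 to 1.32, 1.89 and 1.53 CPM (−6.43). Among the 14 chemokine and NF-kB genes 6 fell and 1 rose, Nfkb2, from 73.5, 57.0 and 26.2 to 222, 422 and 360.0 CPM (2.68, SE 0.38, FDR 1.48e-05). Nfkbia, the inhibitor of NF-kB, lay at the fold threshold (−2.003, and −1.89 to −1.88 without the third library at 3 h, the first at 1 day or the third at 1 day). Of 15 interferon-stimulated genes 6 fell, led by the GTPase gene Iigp1 (−3.99), and none rose (3 lower with library totals). Acute-phase proteins are plasma proteins that the liver raises in inflammation: 11 of 25 were called lower (median −1.49, 13 with over 2048 counts in some library), and 4 with library totals. Steap4, a metal reductase, fell from 1412, 1622 and 2154 to 16.4, 11.7 and 8.44 CPM (−7.13, SE 0.33, FDR 2.53e-10). Lcn2, an iron-binding acute-phase protein, differed by 1.11 in the other direction (1.80 after correction for repeated UMIs) and was not called, and Hp, haptoglobin, by −1.41. Saa1, serum amyloid A, was at 1861, 1155 and 2189.7 CPM and then 1082, 962 and 1214 CPM, which overlap (−0.68).

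Genes of endoplasmic reticulum (ER) stress and of the response to amino acid shortage, often raised together, went both ways. Of 27 tested 11 fell and 3 rose, and with library totals 7 fell and 7 rose. Most of those that fell serve protein folding or clearance in the ER or regulate it, such as Pdia4 (40.2, 134 and 53.4 CPM, then 1.32, 1.51 and 2.69 CPM, −5.34), Herpud1 (−4.27), Hsp90b1 (−3.22) and Xbp1 (−3.14). Others that fell do not: Cebpb, described above, Ppp1r15a, which restores translation after stress (−3.41), and Chac1, which breaks down glutathione (−2.13). The 3 that rose make or import amino acids. Slc7a11, the cystine importer, rose from 6.86, 0.838 and 1.81 to 298, 126 and 134 CPM (5.91, SE 0.57, FDR 2.67e-07). Asns, asparagine synthetase, rose from 6.86, 3.35 and 0.905 to 51.6, 39.6 and 38.8 CPM (3.55), and Psat1, of serine synthesis, by 3.71 (4.32 after correction for repeated UMIs). Hspa5, the main ER chaperone, was at 1763, 1235 and 1186 CPM and then 782, 840.1 and 825 CPM (−0.77), not called. Ddit3, a factor of the same stress response, overlapped between groups (0.77, FDR 0.308). The ER stress element is spelled CCAAT and CCACG with 9 free bases between them. It was in 5 promoters of genes called lower (0.539%), 0 of those called higher (0%) and 14 of those tested (0.196%). These counts are small and the shares were not tested. Among members of this list with the element before the start, 1 was called lower and 4 were not called. The element is shown for a chaperone that fell and for Hspa5, which was not called.
Hsp90b1, nearer match, opposite strand, chr10:86705527-86705556 (− strand): gagtgCGTGGTGAGGCACGATTGGtgagtt
Hsp90b1, farther match, chr10:86705632-86705661 (− strand): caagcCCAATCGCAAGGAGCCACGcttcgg
Hspa5, chr2:34772020-34772049 (+ strand): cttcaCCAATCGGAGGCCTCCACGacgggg
Both genes hold the element, at log2 fold changes of −3.22 and −0.77.

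Other stress programs had medians nearer 0. Of 19 heat-shock proteins 1 rose and none fell (median 0.35): Cryab, a small heat-shock protein, from 5.88, 6.71 and 5.43 to 41.4, 43.8 and 59.9 CPM (2.99), and its neighbour in kind Hspb1 was at 1.48, not called. The metallothioneins Mt1 and Mt2, which bind zinc, were both at −0.75 with 2213 to 2814 counts at 3 h and 3238 to 4041 at 1 day. Corrected for repeated UMIs Mt1 was at 0.53 and Mt2 at −0.16, so neither is given a direction. Among hypoxia genes, which respond to low oxygen, 2 of 18 fell and 3 rose (27.8% called, median −0.19, and 0.52 with library totals). Bnip3, of mitochondrial turnover, fell by 3.08 and Vegfa, the vascular growth factor, fell by 2.61 on the log2 scale, whereas Ndrg1 rose from 7.84, 7.55 and 15.4 to 122, 123 and 31.5 CPM (3.16). The glucose importer Slc2a1 overlapped between groups (−0.44, FDR 0.326). In the list of metallothionein and NRF2 genes 3 of 24 fell and 2 rose (20.8% called), from Gstm3, a glutathione transferase, at −3.72 to Slc7a11 at 5.91. With library totals 2 fell and 5 rose.

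About as many clock genes and genes of the growth hormone axis were called lower as were not called. At any fold 11 clock genes passed the FDR lower and 1 higher, and 11 genes of the growth hormone axis lower. Of 16 clock genes 7 fell and none rose (median −1.49, and 4 lower and 1 higher with library totals), and the hour of the day at which libraries were taken is not given in the sources used here. Dbp, a rhythmic factor driven by the clock, fell from 64.7, 218 and 127 to 0.329, 1.51 and 0 CPM (−7.68, SE 0.66, FDR 7.52e-08). Nr1d1, the clock repressor REV-ERB alpha, fell from 144, 73.8 and 45.2 to 19.4, 17.4 and 20.3 CPM (−2.20, and −1.65 without the first library at 3 h), while Per1 differed by −0.09. In the growth hormone and IGF list 8 of 15 fell (median −2.24). Igfbp1, a binding protein of insulin-like growth factors, fell from 1668, 1439.6 and 1556 to 246, 299 and 290.1 CPM (−2.48), and Igf1 itself was at −1.42, not called. Socs2, a target of growth hormone, overlapped (0.45, FDR 0.283).

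The genes with the smallest p among those that rose had few counts at 3 h. They included calcium-binding, vesicle and surface proteins beside genes of other functions. S100a6, a small calcium-binding protein (ENSMUSG00000001025, chromosome 3, 90612882 to 90624181), had 1 count at 3 h and was at 556, 531 and 715 CPM at 1 day (1983-fold, counting interval 356 to 78357). Anxa2, an annexin that links membranes to actin (ENSMUSG00000032231, chromosome 9, 69453620 to 69491795), rose from 13.7, 8.38 and 9.95 to 682, 826 and 965 CPM (6.27, SE 0.34, FDR 9.63e-10). Anxa3 had 2 counts at 3 h and was at 407, 403 and 657 CPM at 1 day (803-fold, counting interval 222 to 6636). In the list of S100 proteins and annexins 6 of 13 rose and none fell, and the others stayed between −0.93 and 0.31, which puts the median at 0.31. Cpe, carboxypeptidase E, which processes peptide hormones, had 1 count at 3 h and was at 433, 524 and 660.4 CPM at 1 day (1770-fold, counting interval 318 to 69939). Npy, neuropeptide Y, rose from 3.92, 0 and 0.905 to 471, 598 and 251 CPM (8.12, SE 0.60, FDR 1.47e-08). Both serve neuroendocrine cells in the textbook picture, and neither was high in fresh hepatocytes (0 and 0.606 CPM on average). Cd63, a vesicle membrane protein, rose by 6.10 and Serpinb6a, a protease inhibitor, by 4.77 on the log2 scale. Slc25a24, a mitochondrial ATP carrier, had 1 count and then 147, 127 and 149 CPM. Spire1, an actin nucleator, had 2 counts and then 241, 139 and 225 CPM. B4galt6, of glycolipid synthesis, rose from 2.94, 0 and 1.81 to 193, 237 and 322 CPM (7.31).

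Cytoskeleton genes had the highest median of the lists plotted by function. Of 38 actin, intermediate filament and serum response factor genes 17 rose and 1 fell (median 1.68). Tagln2, an actin-binding protein, rose from 10.8, 4.19 and 9.05 to 391, 436 and 431 CPM (5.72, SE 0.38, FDR 5.39e-09). Flna, which crosslinks actin, rose by 5.74 and Tpm1, which lines actin filaments, by 2.73 on the log2 scale. Krt20, a keratin known from intestinal and urothelial cells, had no count at 3 h and was at 76.6, 125 and 149 CPM at 1 day (at least 127-fold higher, counted against 3 counts over the group). Of the tubulins in the list 6 rose with them, from Tubb2a (2.06) to Tubb4b (3.02), besides Tubb2b, which had no count at 3 h. The hepatocyte keratins are near the UMI limit at 1 day. Krt18 was at 1437, 492 and 718 CPM and then 1195, 1263 and 1434 CPM (0.56, FDR 0.121), and Krt8 at 0.05, with 2936 to 3597 counts at 1 day. After correction for repeated UMIs Krt18 was at 1.56 (FDR 0.00221) and Krt8 at 0.80 (FDR 0.0725), neither called. Actb, beta-actin, was at −0.45, and at 0.13 after correction for repeated UMIs, so no direction is read from it. Pfn1, an actin monomer-binding protein, was the member that fell, from 452, 1026 and 511 to 47.0, 114 and 126 CPM (−2.79). Vim, the mesenchymal filament, rose from 0.981, 1.68 and 0.905 to 6.58, 4.91 and 4.60 CPM (2.10, SE 0.64, FDR 0.0104). At 3 h that is 1 or 2 counts a library, and the call was lost without the first (1.995) or the third (1.93) library at 3 h.

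Adhesion genes went both ways. Among 19 integrin, laminin and matrix genes 5 rose and 3 fell (median 1.06), and with library totals 9 rose and 1 fell. Cd44, a receptor for hyaluronan (ENSMUSG00000005087, chromosome 2, 102811141 to 102901665), had 2 counts at 3 h and was at 134, 95.1 and 129 CPM at 1 day (199-fold, counting interval 55.0 to 1648). The integrin subunits Itgb3 (5.41), Itga3 (4.60) and Itgav (2.49) rose with it, while Itga6 was at 1.61 and Plaur, the urokinase receptor, at 0.68, not called. Lamb1, a laminin chain, had 3 counts at 3 h and 2 at 1 day. Lama3, a chain of laminin-332, fell from 9.81, 12.6 and 10.9 CPM to 2 counts in all. In the epithelial junction list 2 of 22 rose and 3 fell, shares near those of all genes tested (9.82% and 13.7%), and with library totals 5 rose and 2 fell. Cldn4, a tight junction claudin of ducts and gut, had 1 count at 3 h and was at 39.5, 47.6 and 49.9 CPM at 1 day (150-fold, counting interval 26.8 to 5954), and Cldn3 rose from 18.6, 52.0 and 17.2 to 93.4, 160.4 and 166 CPM (2.24, and 1.95 without the third library at 3 h). Cldn14 fell from 267, 255 and 348 to 17.4, 23.8 and 10.4 CPM (−4.07). E-cadherin, Cdh1, was at 301, 402 and 306 CPM and then 391, 491 and 452 CPM, which overlap (0.40, FDR 0.181), and occludin, Ocln, differed by −0.48 (FDR 0.178). The gap junction gene Gjb1 was at −1.74, not called.

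Targets of Yap, the effector that Hippo signalling holds back, were of both kinds. Of 14 tested 5 rose and 1 fell (median 1.53, and 8 and 1 with library totals). Ccn2 (Ctgf) had 3 counts at 3 h and was at 82.9, 67.6 and 81.4 CPM at 1 day (85.7-fold, counting interval 29.2 to 417). Ccn1 (Cyr61), which is also an immediate-early gene, fell from 411, 363 and 467 to 38.8, 60.4 and 67.2 CPM (−2.90, SE 0.30, FDR 6.55e-07). Ajuba, an adaptor that restrains the Hippo kinases, had no count at 3 h and was at 85.5, 79.6 and 156 CPM at 1 day (at least 117-fold higher, counted against 3 counts over the group). Ankrd1 rose from 0.981, 0.838 and 7.24 to 9.54, 15.1 and 20.3 CPM (2.28), and was at 1.90 and 1.81 without the first or the second library at 3 h.

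Of 9 genes of the EGF receptor family 1 rose and 2 fell, and with library totals 3 rose and 1 fell. Hbegf, a ligand of the receptor, rose from 21.6, 21.8 and 19.0 to 111, 87.6 and 69.5 CPM (2.10), and was at 1.93 without the first library at 1 day. Areg, amphiregulin, another ligand, fell from 12.7, 9.22 and 10.9 to 0.658, 1.13 and 0.384 CPM (−3.80). Egfr was at 489, 769 and 632 CPM and then 181, 191 and 170.4 CPM, without overlap (−1.80, FDR 2.11e-05), inside the fold threshold. Id1, a target of BMP signalling, rose from 8.83, 0.838 and 3.62 to 44.1, 63.0 and 107 CPM (4.04, SE 0.55, FDR 1.13e-05), whereas Id2 overlapped (0.36). Bmp4 and Bmp7 had 8 and 14 counts at 3 h and 4 and 4 at 1 day, too few to be tested.

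Genes of mitosis were mostly below the count filter at both times. In that list 2 of 25 were abundant enough to be tested and neither was called, and Mki67, the marker of cycling cells, had 2 counts at each time. Genes that prepare for division were measurable. Of 14 genes of G1 control 3 rose and 3 fell. Cdk6, a kinase that drives entry into the cycle, rose from 52.0, 31.9 and 49.8 to 337, 397 and 499 CPM (3.21, SE 0.32, FDR 3.31e-07). Ccne1, cyclin E1, rose from 0, 7.55 and 3.62 to 13.8, 23.0 and 19.6 CPM (2.26, and 1.72 without the first library at 3 h). Ccnd1, cyclin D1, was at 19.6, 43.6 and 22.6 CPM and then 12.2, 9.81 and 4.60 CPM (−1.68), not called, and the inhibitor Cdkn1b was at −0.36 with overlap. In DNA replication 6 of 22 rose and 2 fell (median 0.63). Mcm5, a helicase subunit, had no count at 3 h and was at 5.59, 4.53 and 7.67 CPM at 1 day (at least 6.53-fold higher, counted against 3 counts over the group), Mcm2 was at 1.30, Pcna at −0.20 with overlap and Rrm2, of nucleotide supply, at −1.16, none of them called. Mcm10, a replication factor, and E2f8, a repressor of the cycle, went the other way. Mcm10 fell from 74.5, 117 and 217 to 1.64, 3.02 and 1.15 CPM (−6.10), and E2f8 from 29.4, 59.5 and 165 CPM to 1 count in all. In the list of p53 targets, which include arrest and death genes, 6 of 18 rose and 2 fell (median 1.17). Tnfrsf10b, a death receptor, rose from 0, 1.68 and 0.905 to 14.5, 63.4 and 16.9 CPM (5.03), Zmat3 rose by 3.80 on the log2 scale, and Gdf15, a stress cytokine, fell from 698, 599 and 486 to 79.6, 82.6 and 68.3 CPM (−2.95). The arrest gene Cdkn1a was at 403, 177 and 236 CPM and then 523, 804 and 564 CPM, without overlap (1.21, FDR 0.00297), inside the fold threshold, and Mdm2, the p53 antagonist, overlapped (−0.34).

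By their medians ribosome genes lay above the average gene and respiratory genes below it, mostly inside the fold threshold. Of 35 ribosome biogenesis genes 4 rose and none fell (median 0.90, and 10 and none with library totals). That is 11.4%, near the 9.82% of all genes called higher. Nhp2, of the particles that modify ribosomal RNA, rose from 18.6, 31.0 and 17.2 to 94.1, 98.9 and 160.0 CPM (2.39), and Nop56 (1.73), the polymerase subunit Polr1b (1.46) and Ncl, nucleolin, (1.11) were not called. Among 85 cytosolic ribosomal proteins 1 was called higher and none lower, and the median was 0.46. With library totals 10 were called higher and the median was 1.16. Their share of all counts was 0.954% to 1.25% at 3 h and 2.08% to 2.28% at 1 day. Of 71 nuclear respiratory chain genes 6 fell and none rose (median −0.97, and 2 lower with library totals). That is 8.45%, below the 13.7% of all genes called lower. Cox7c, a cytochrome oxidase subunit, led them (259.9, 247 and 263 CPM, then 23.7, 20.8 and 11.9 CPM, −3.76). Of the 13 mitochondrially encoded genes 10 had over 2048 counts in some library, and mt-Nd3 (−2.23) was called with mt-Co2 (−2.19, and −3.14 after correction for repeated UMIs).

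Levels in fresh hepatocytes and at 2 days place the step in the series, with no test, on the scale of the 6 libraries and with 1 CPM added. Of the 978 genes higher at 1 day, 850 were within 1 on the log2 scale of that level at 2 days, 71 were further up and 57 were back down by more than 1. Of the 1360 lower genes, 1018 stayed within 1, 284 fell further and 58 came back. Seen from the other side, 517 of the lower genes had been more than 1 below their 3 h level in fresh hepatocytes, and 432 of the higher genes more than 1 above it. Of the other lower genes, 788 were within 1 of their 3 h level in fresh hepatocytes and 55 were more than 1 above it. The first kind includes Cxcl10, at 10.8 CPM in fresh hepatocytes, and Atf3, at 105 CPM. It also includes Igfbp1, at 96.6 CPM, Pfkfb3, at 33.6 CPM, Cldn14, at 8.53 CPM, and Ehhadh, at 7.02 CPM. Tat was at 1092 CPM in 1 library of fresh hepatocytes and at 80.0 CPM or less in the others, and Sds was at 166, 10.6 and 41.2 CPM, so in these libraries too both were below their levels at 3 h. Foxa2 is of the second kind: it averaged 123 CPM in fresh hepatocytes, 18.3 CPM at 3 h, 82.4 CPM at 1 day and 108 CPM at 2 days. Ajuba, Cd44 and Pkm are of that kind too, at 13.2, 16.2 and 14.2 CPM on average in fresh hepatocytes. Of the other higher genes, 507 were within 1 of their 3 h level in fresh hepatocytes and 39 were more than 1 below it. Cps1 and Cyp3a11 went on falling, to 12.96 and 14.6 CPM at 2 days. Slc7a11 was at 0 CPM in fresh hepatocytes, 186 at 1 day and 46.2 at 2 days. Vim, at 5.36 CPM at 1 day, was at 42.2 CPM at 2 days, and Ccnd1, at 8.86 CPM, was at 129.7 CPM. Prom1, with 1 count at each time, and S100a7a, with none, are genes that the study follows later in culture.

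**Figure D4:**
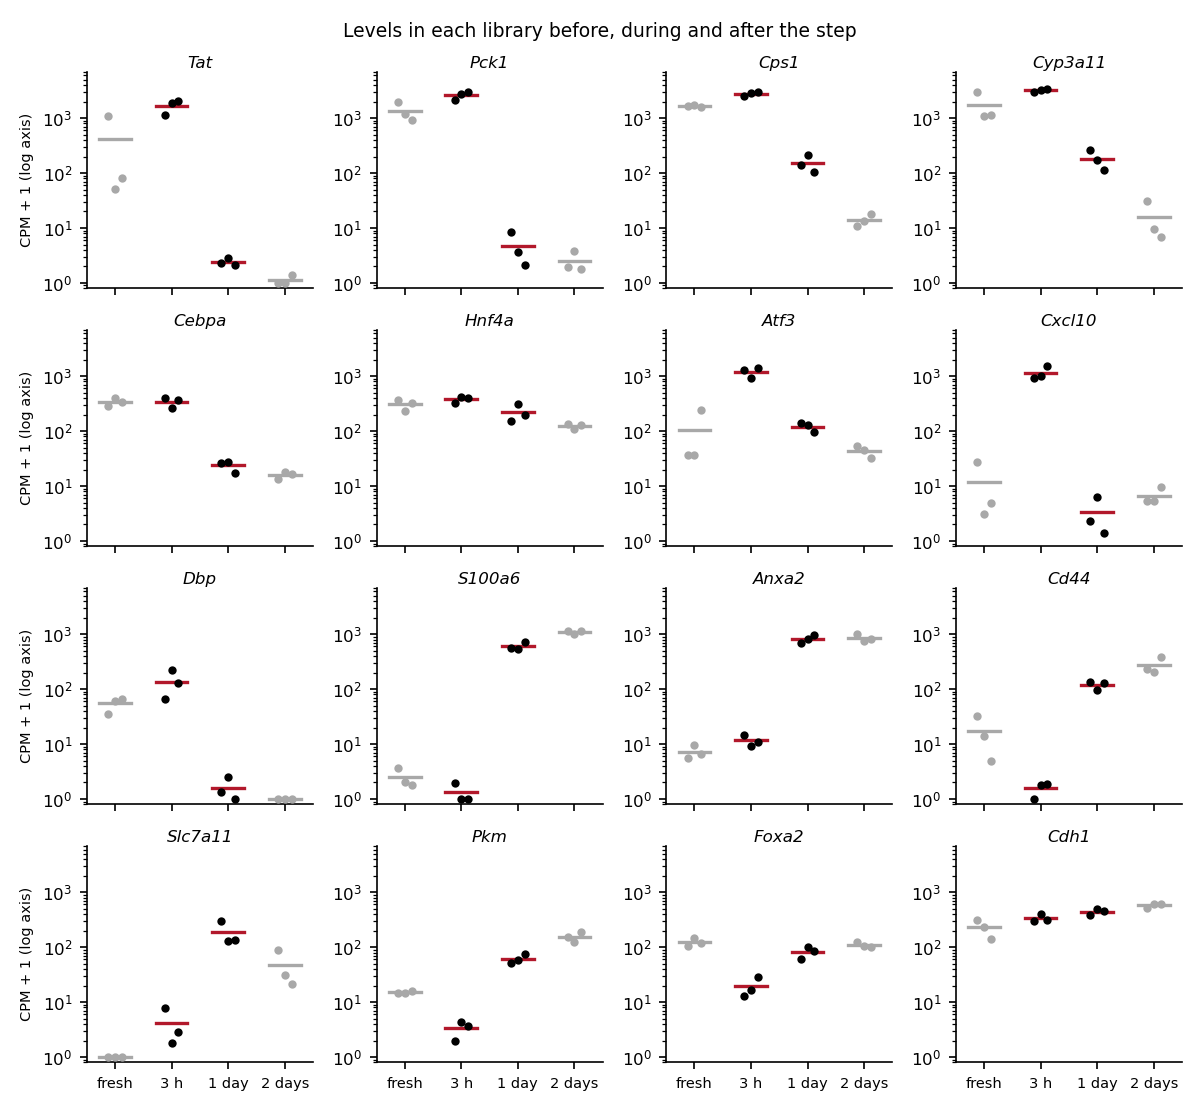
Level of 16 genes (CPM + 1, log axis) in each library, with 3 h and 1 day in black with red means and, for comparison without a test, fresh hepatocytes and 2 days in grey. Tat, Pck1 and Dbp drop between 3 h and 1 day and stay low at 2 days, Atf3 and Cxcl10 are highest at 3 h, S100a6, Anxa2, Cd44 and Pkm rise and stay high, Hnf4a falls to 124 CPM on average at 2 days, and Cdh1 goes from 228 CPM in fresh hepatocytes to 581 CPM at 2 days.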

How the data were processed

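Per the labels, RNA of mouse hepatocytes was sequenced by CEL-Seq2, and the authors deposited 1 table of raw UMI counts for 46078 identifiers in 49 libraries, with no normalization. Of these identifiers 45143 have a symbol in GENCODE M21 (GRCm38), and 0 columns were left unmatched to a sample. The submitters' processing notes name bcl2fastq 2.20, Bowtie2 2.3.1, HTSeq 0.6.0 and GRCm38. The annotation and the strand used for counting are not given in the sources used here, so reads of overlapping genes (for example Dbp with Sphk2, Nr1d1 with Thra, or Cxcl10 with Art3) cannot be told apart.

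The counts of the 6 libraries were compared with the quasi-likelihood F-test of edgeR 4.0.16 in R 4.3.3, with TMM, filterByExpr (minimum count 10, minimum total 15) and Benjamini-Hochberg adjustment, after a test on simulated data. The test and the thresholds (FDR 0.1, log2 fold change 2) are those of the study. SEs were obtained from the F statistics. Ratios of genes with 1 to 3 counts in a group carry 95% exact counting intervals, and a fold over a group without counts is a bound against 3 counts in it; intervals and floors cover counting error only. The correction for repeated UMIs takes 4096 possible tags, from a UMI length of 6 bases. That length was inferred from the highest count and is not given in the labels.

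The comparison, gene lists and motifs were chosen with earlier results of these data known. Genes named are the 12 genes of smallest p called in each direction, set members of each list with its largest change either way, and the genes that the study names for its time course. Other list members were named after their values were seen, and some results are not reported here. Lists are described by counts and medians, with no set test. Groups of 3 are too small for an outlier test. Alternatives were RLE factors, library totals, DESeq2 1.42.0, other filters and thresholds, 21 libraries in 1 fit, a replicate block, corrected or thinned counts, and leaving out each library.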

Additional observations from a re-analysis of the deposited data

How the results depend on the processing

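The 2338 calls (978 higher, 1360 lower) became 3759 (1616 and 2143) without a low-count filter and 3774 (1624 and 2150) with 0.5 CPM in at least 1 library, where more genes are tested. They became 5082 (2485 and 2597) with an FDR of 0.05 and 1 on the log2 scale as thresholds, and 6348 (3199 and 3149) at any fold. Library totals gave 1984 higher and 873 lower. RLE factors gave 2335, DESeq2 3137, the fit of 21 libraries 3010, corrected counts 2426 and thinned counts 2176, and leaving out 1 library 2306 to 2892 (912 to 1312 higher, 1394 to 1580 lower). In these fits no gene called here was called in the other direction. By the numbers in the titles same-numbered libraries did not deviate together (r 0.055, 0.14 and −0.17), and with these replicates as a block 2326 genes were called, 2290 of them shared. The numbers in the descriptions share only 4, the first library at 3 h and the third at 1 day (r 0.19, the highest of the 9 pairs), so no block could be fitted on them.

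Library totals turned the sign of Saa1 (0.0356), Actb (0.25), Dusp5 (0.22), Ocln (0.24), Slc2a1 (0.27), Cdkn1b (0.34), Mdm2 (0.37), Pcna (0.51) and Per1 (0.62), none called. Per1 also turned without a low-count filter (0.0287) and with 0.5 CPM in at least 1 library (0.0286). With 1 library left out Per1 ran from −0.30 to 0.24, turning without the first at 3 h or the third at 1 day, and Krt8 from −0.26 to 0.29, turning without the second at 3 h or at 1 day. Corrected counts put Mt1 at 0.53 and Actb at 0.13. With library totals the calls of Igfbp1, C8a, mt-Nd3, Cyp2f2, Cyp1a2, Vegfa, Mup6, Nfkbia, Egr1, Glul, F9 and Nr1d1 were lost, at −1.90 to −1.29, and Nop56, Itga6, Hspb1 and Polr1b were gained. The list medians of metallothionein and NRF2 genes (0.023), hypoxia (0.52), glycolysis (0.27), junctions (0.42) and mitosis (0.25) turned positive with library totals, the first also with corrected counts (0.26), and that of cholangiocyte markers without the third library at 3 h (0.38). RLE factors (−1.996) and DESeq2 (−1.94) lost the call of Nfkbia, and both wider filters those of Cyp2f2 (−1.95), F9 (−1.93) and Nfkbia (−1.87). DESeq2 and leaving out the first or the third library at 3 h each lost the call of Vim, which the low-count filter dropped with thinned counts and without any 1 library at 1 day. Depth limits the 40 genes without a count at 3 h, whose folds are bounds, and the UMI limit those near 4096 counts.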

Other observations

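Further gene families, grouped by symbol after the values were known, showed these counts, to be read against 9.82% of all genes called higher and 13.7% called lower. Of 14 aldehyde dehydrogenases, which clear reactive aldehydes, 11 were called lower and 1 higher (median log2 fold change −2.89), and of 12 carboxylesterases, which split esters of drugs and lipids, 7 were called lower (median −2.20). Among 170 solute carriers 54 were called lower and 13 higher (median −0.84), and among 15 peroxins, which build peroxisomes, 6 lower and none higher (median −1.25). Of 157 zinc finger protein genes 21 were called higher and 7 lower (median 0.94), yet Zfp36 (−5.37), Zfp36l1 (−3.52) and Zfp36l2 (−3.30), which destabilise messenger RNAs with AU-rich elements, were all called lower. Protein synthesis and turnover differed from these: of 52 translation initiation factors 2 were called higher and none lower, of 20 cytosolic aminoacyl-tRNA synthetases 3 and none, of 8 chaperonin subunits none either way (median 0.92), and of 37 proteasome subunits 3 were called lower and none higher (median 0.00).

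In the libraries at 3 h some genes spread widely. Cxcl2 was at 1116, 103 and 442 CPM, E2f8 at 29.4, 59.5 and 165 CPM and Ehhadh at 18.6, 193 and 62.4 CPM, so the library with the highest value was not the same for these genes. Counts of the heat-shock gene Hspa1a, too low to be tested, were 1 in all at 3 h and 23, 5 and 2 at 1 day.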
